A study of Mus musculus with 26 samples.

Results

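RNA held on an anti-hnRNPK antibody from the nuclear extract of mouse liver was compared with total liver RNA, at the level of whole genes and of the isoforms within a gene. The members are the 6 nuclear immunoprecipitation (IP) libraries and the 12 total RNA libraries of the series, 18 of 26 libraries in all, chosen by their labels for cell compartment and RNA type. Each of 3 groups of mice gave 2 nuclear IP libraries and 4 total RNA libraries. The groups were B6.V-Lepob/J mice on a normal diet (ob/ob, an obese strain without functional leptin), C57BL/6J mice on a normal diet, and C57BL/6J mice on a high-fat diet. No other treatment is labelled. Ages are not given in the sources used here. Nothing says that replicates came from different animals, so the spread behind each p-value may be technical only. The 2 total RNA libraries of each replicate number were added together, which left 6 total RNA units beside 6 nuclear IP units. The 6 cytoplasmic IP libraries of the same mouse groups and 1 nuclear IgG library, made with control IgG from mixed strains and diets, served as references.

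hnRNPK is an RNA- and DNA-binding protein whose KH domains bind C-rich stretches. It shuttles between nucleus and cytoplasm and is known to act in transcription, in splicing and in the stability and translation of mRNA. In RNA immunoprecipitation the antibody captures the protein on beads, and the RNA that stays with the beads is sequenced. A gene can give several isoforms, transcripts that differ in their exons or ends, and reads from shared exons cannot be given to 1 isoform directly: the deposited counts are estimates that divide such reads among isoforms. Nuclear extracts were passed over IgG beads before the anti-hnRNPK beads, per the labels' protocols. Total RNA was made from whole tissue and is not the input of the nuclear extract, so fractionation and precipitation cannot be told apart in this comparison.

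The tables list 59121 transcripts in 31469 numbered gene clusters, of which 12149 have 2 or more isoforms. Total RNA units held 64209126 to 80521231 estimated counts and nuclear IP libraries 5336060 to 10581089, and the nuclear IgG library held 3116786. Transcripts carry identifiers that no table used here pairs with gene symbols. Genes are therefore given by identifier, pathways, liver cell markers and hnRNPK's own transcript were not analysed here, and no sequence is shown. The labelled tissue could for the same reason not be checked against its markers.

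The isoforms that made up a gene in the nuclear IP were often not those that made it up in total RNA. Isoform composition was compared in the 2178 clusters with 2 or more isoforms and at least 100 counts in each of the 12 units. The measure is the share distance, the percentage of a cluster's counts that would have to move from 1 isoform to another for both libraries to match. Between the replicates of a mouse group, the median distance over clusters was 1.57% to 2.26% in the nuclear IP and 1.27% to 1.59% in total RNA. Between a nuclear IP unit and a total RNA unit of the same mouse group it was 41.0% to 46.1%, and 44.7% to 48.3% of clusters had a distance of 50% or more. All 12 such pairs thus lay far above all replicate pairs. Read length, sequencing date and alignment settings of the 2 kinds of library are not given in the sources used here, so a difference in how they were sequenced or aligned cannot be told apart from a difference in the RNA in any isoform result against total RNA.

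**Figure D1:**
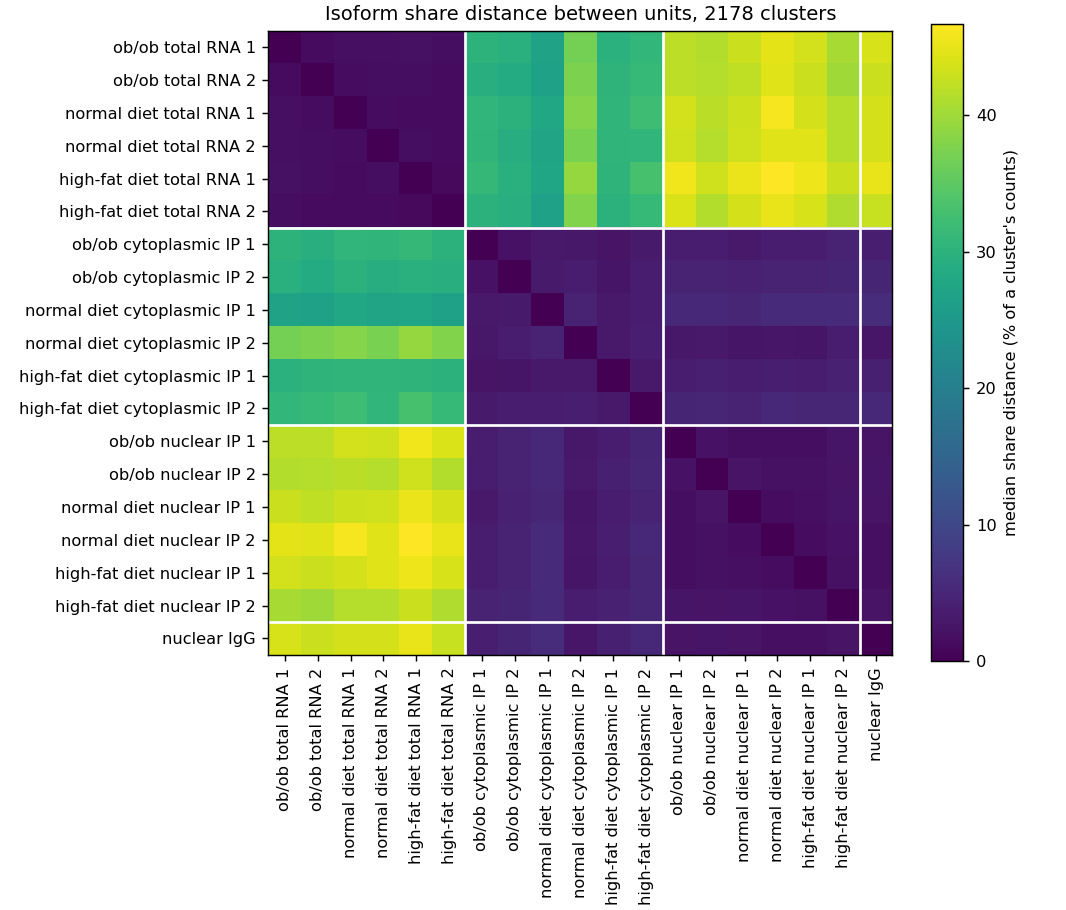
Median isoform share distance between units, as a percentage of a cluster's counts, over 2178 clusters. Rows and columns are the 6 total RNA, 6 cytoplasmic IP and 6 nuclear IP units and the nuclear IgG library. The block of nuclear IP against total RNA lies at about the level of nuclear IgG against total RNA (42.6% to 45.0%), while nuclear IP and nuclear IgG lie close together (1.86% to 2.67%).

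The nuclear IgG library had the same isoform composition as the nuclear IP to within about the spread of replicates. Its median distance to the 6 nuclear IP units was 1.86% to 2.67%, close to the 1.57% to 2.26% between nuclear IP replicates, and its distance to the total RNA units was 42.6% to 45.0%. Cytoplasmic IP units stood at 2.63% to 5.77% from nuclear IP units of the same mouse group and at 27.3% to 38.1% from total RNA. The isoform difference from total RNA was therefore measured in IP libraries of both compartments and in nuclear IgG, made without the hnRNPK antibody. The cytoplasmic IgG library stood at 29.5% to 31.2% from total RNA units. It held only 338469 counts and is not used further. The nuclear IgG library has no replicate, so no test compares it with the nuclear IP.

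In the test of single isoforms, 12173 of 17699 transcripts (68.8%) changed their share of the cluster. The test was edgeR's comparison of a transcript's change with that of its whole cluster (Benjamini-Hochberg adjusted p under 0.05). Shares rose for 4132 transcripts (23.3%) and fell for 8041 (45.4%). With limma on log2 shares, 6173 rose and 8322 fell, so the excess of lower shares was kept but was smaller. Total RNA units were deeper, and the part of depth in this split was not tested. By cluster, edgeR found a change in 5676 of 6499 (87.3%, Simes' method). In the clusters with at least 100 counts per unit, 4053 of 5655 tested transcripts passed, and 1761 of them in 971 clusters moved by 50 percentage points or more.

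The nuclear IgG library took no part in that test. Its position was read for the transcripts that passed, moved by 10 points or more and had groups that did not overlap. Among the 1066 that were higher in the nuclear IP, the median share was 91.4% in the nuclear IP, 2.29% in total RNA and 93.6% in nuclear IgG. IgG lay nearer to the nuclear IP than to total RNA for 1008 of them (94.6%), inside the range of the 6 nuclear IP units for 642 and inside the range of the total RNA units for 10. Among the 1613 that were lower, the medians were 2.20% in the nuclear IP, 56.5% in total RNA and 0% in IgG, and IgG lay nearer to the nuclear IP for 1559 (96.7%).

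Over the 2178 clusters, the distance between the mean shares of the nuclear IP and of total RNA had a median of 42.0%. It was 50% or more in 1000 clusters (45.9%) and under 10% in 709 (32.6%), so the clusters spread over the whole range rather than sharing a common moderate change. For comparison, the median over the same clusters of the mean distance between replicates was 3.40% in the nuclear IP and 1.73% in total RNA. The distance was smaller in abundant genes. Its median was 52.6% in the 144 clusters at 1 to 10 TPM in total RNA (the deposited level corrected for length and depth, summed over a cluster), 47.8% in 1552 clusters at 10 to 100 TPM, 16.0% in 445 at 100 to 1000 TPM, and 15.1% in 36 at 1000 TPM or more. Even in the most abundant class, 10 of 36 clusters had a distance of 50% or more. The requirement of 100 counts keeps few clusters under 10 TPM.

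**Figure D2:**
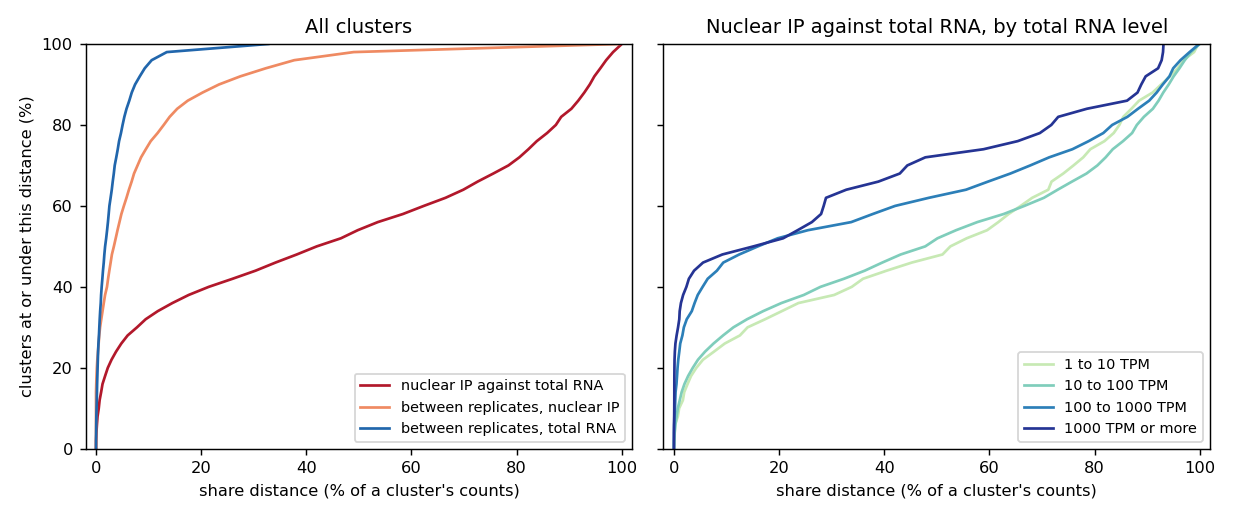
Cumulative percentage of clusters (vertical axis) at or under a share distance (horizontal axis, % of a cluster's counts). On the left, nuclear IP against total RNA (median 42.0%) is shown with the distance between replicates of the nuclear IP (3.40%) and of total RNA (1.73%); on the right, nuclear IP against total RNA is split by the cluster's level in total RNA, and the curves of the 2 classes at 100 TPM or more start higher.

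The distance was smallest in clusters with 2 annotated isoforms and largest in those with 5 to 9. The median was 6.42% in 895 clusters with 2 isoforms, 60.4% in 867 with 3 to 4, 72.4% in 383 with 5 to 9, and 66.5% in 33 with 10 or more. The distance between nuclear IP replicates also grew, from 0.734% with 2 isoforms to 10.2% with 10 or more. Depth did not order it in the same way. The median was 43.0% where the lowest unit had 100 to 300 counts (1424 clusters) and 42.1% at 300 to 1000 (605 clusters). It was 22.7% at 1000 to 3000 (127 clusters) and 79.5% above that (22 clusters).

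The isoform that gained share in the nuclear IP was nearly always the shorter one. In 809 clusters 1 isoform gained and another lost at least 50 points, and the gaining isoform was shorter in 797 of them (98.5%) and longer in 12. The median difference was 205 nt, and the gaining isoform had a median of 91.8% of the length of the losing one. With a minimum of 80 points the gaining isoform was shorter in 369 of 369 clusters, and with 10 points in 1314 of 1438. The same count was made for single pairs of units. Each of the 6 nuclear IP units against the same-numbered total RNA unit of its mouse group gave 791 to 860 such clusters, with the gaining isoform shorter in 97.5% to 98.02%. Nuclear IgG against total RNA gave 848 clusters and 98.6%. Replicates of the nuclear IP gave 38 to 91 clusters with 55.3% to 60.4% shorter, and replicates of total RNA gave 0.

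A count that does not pick isoforms by the size of their change gave the same direction. In 1720 of the 2178 clusters, the shortest and the longest of the isoforms that held 5% or more in any of the 12 units were followed. An isoform could enter through 1 kind of library alone, which favours clusters with a change. The size of the gap therefore holds for these clusters only. The shortest isoform held a mean of 67.9% ± 1.2 of the cluster's counts in the nuclear IP and 24.1% ± 0.36 in total RNA (SD, n = 6 units each). The longest held 17.5% ± 0.79 and 55.1% ± 0.37. Neither pair of ranges overlapped: the shortest isoform stood at 66.5% to 69.7% in the nuclear IP and at 23.7% to 24.5% in total RNA. An exact permutation test within mouse groups gave p = 0.00926 (two-sided) for both isoforms, the smallest p this design allows. Nuclear IgG stood at 68.2% for the shortest and 17.2% for the longest isoform, within the nuclear IP range, and cytoplasmic IP units stood at 57.8% to 64.7% and 19.9% to 25.9%.

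**Figure D3:**
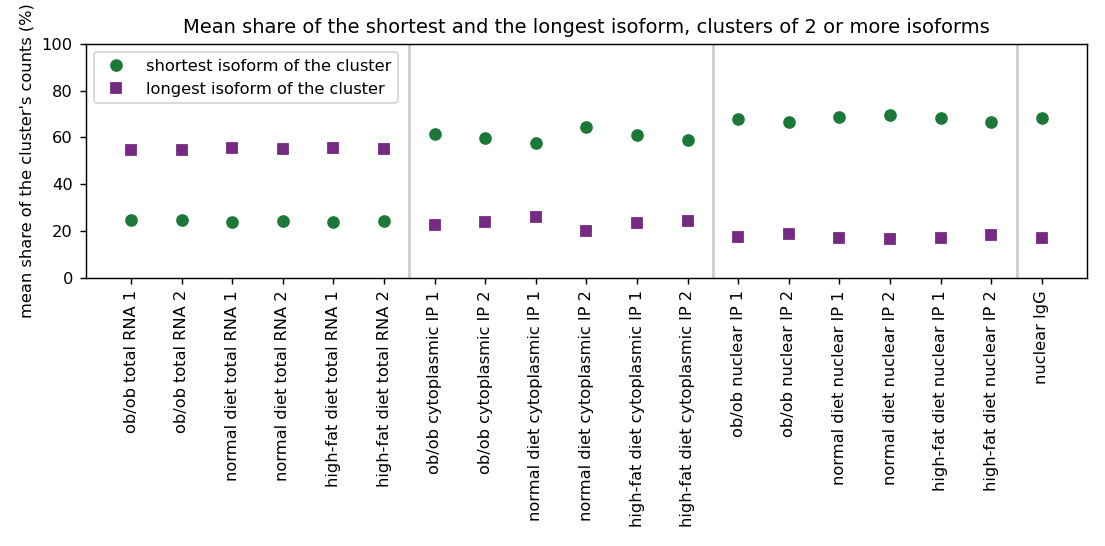
Mean share of the cluster's counts (%, vertical axis) held by the shortest (circles) and the longest (squares) isoform in each unit, over 1720 clusters. The order is turned between total RNA, where the longest isoform leads at 54.7% to 55.6%, and the IP and IgG libraries, where the shortest leads.

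Clusters annotated with exactly 2 isoforms show how the shift varied with the length between them. Over 890 such clusters of unequal length, the shorter isoform held a mean of 62.0% to 64.0% in nuclear IP units and 38.4% to 38.8% in total RNA units. It rose by 10 points or more, without overlap between groups, in 320 clusters (36.0%) and fell in 41 (4.61%). Where the isoforms differed by 1 to under 50 nt (146 clusters), the shorter one was higher by 25.0 points in the nuclear IP, averaged over mouse groups. At 50 to under 200 nt (274 clusters) the difference was 39.8 points, at 200 to under 1000 nt (234 clusters) 24.1 points, and at 1000 nt or more (236 clusters) 6.74 points. The exact permutation p was 0.00926 in each of the 4 length classes. Nuclear IgG gave 76.1%, 82.0%, 66.4% and 29.0% for the shorter isoform in those classes, and the nuclear IP units 70.8% to 76.5%, 81.4% to 84.4%, 66.2% to 67.1% and 29.0% to 29.7%. The widest gap from total RNA thus lay where the isoforms differed by 50 to under 200 nt, and the narrowest where they differed by 1000 nt or more.

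The length of a cluster's isoforms, weighted by their share per unit of length, moved in the same direction. The median over clusters of its log2 was 11.44 ± 0.003 in the nuclear IP and 11.56 ± 0.002 in total RNA (SD, n = 6), a difference of -0.12 on the log2 scale (exact permutation test, two-sided, p = 0.00926). Nuclear IgG was also at 11.44 and cytoplasmic IP units were at 11.44 to 11.46. Nuclear and cytoplasmic IP differed by -0.0068, which did not pass (p = 0.0648, exact permutation test).

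Nuclear IP libraries also held fewer isoforms per gene. A cluster had a mean of 1.43 ± 0.031 isoforms with 5% or more of its counts in the nuclear IP, against 1.85 ± 0.0064 in total RNA (SD, n = 6). The most counted isoform held a median of 97.9% of the cluster in the nuclear IP and 90.8% in total RNA. Both differences had p = 0.00926 in the exact permutation test, and nuclear IgG was at 1.40 isoforms and 99.1%. At the extreme, 238 transcripts in 219 clusters had no count in any of the 6 nuclear IP units although they held at least 10% of the cluster in each total RNA unit. Of these, 223 also had no count in nuclear IgG and 88 had none in any cytoplasmic IP unit. The reverse was found for 84 transcripts, at 0 in all total RNA units and with a median share of 89.6% in the nuclear IP; each of the 84 had counts in nuclear IgG. Depth was not equalised for these values, and nuclear IP libraries (5336060 to 10581089 counts) were shallower than total RNA units (64209126 to 80521231). The part of depth in isoform number and in counts of 0 was not tested.

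The leading isoform of a gene was often replaced. By count divided by effective length, 3835 of 5296 clusters with at least 20 counts per unit had 1 leading isoform in all nuclear IP units and 1 in all total RNA units. These were different isoforms in 1738 clusters (45.3%). The nuclear IP isoform was shorter in 1661 of these and longer in 77, with a median difference of 272 nt. Compared pair by pair, the first units of nuclear IP and total RNA led with different isoforms in 2698 to 2785 of the 5296 clusters. Replicates differed in 349 to 553 clusters in the nuclear IP and in 215 to 241 in total RNA. Nuclear IgG had at least 20 counts in 1712 of the 1738 clusters and led with the nuclear IP's isoform in 1640 of them and with that of total RNA in 53. Replacement was found in 47.7% of clusters at 1 to 10 TPM, 46.1% at 10 to 100, 36.5% at 100 to 1000 and 33.3% at 1000 TPM or more (10 of 30).

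Single genes show how complete the exchange could be. The isoforms named here had the largest change of share each way among those that passed the test without overlap between groups. The transcript uc008ggj.2 (2967 nt) held 100% of the counts of its 3-isoform cluster in each of the 6 nuclear IP units, from 145 to 419 counts per unit. In each of the 6 total RNA units it held 0% of at least 1422 counts, which allows a share of up to 0.211%. Its place in total RNA was taken by isoforms of 3049 nt (28.3% ± 5.7, SD, n = 6) and 3101 nt (71.7% ± 5.7). Nuclear IgG held 100% of the shorter form (77 counts), and cytoplasmic IP units 72.7% to 100%. The change of share passed with an adjusted p of 1.2e-08 by edgeR.

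The transcript uc008std.1 (3510 nt) followed the same pattern: it held 100% in all 6 nuclear IP units and in nuclear IgG, and at most 0.00106% in total RNA, where a 3547-nt isoform held 95.4% ± 2.2 (SD, n = 6). Its adjusted p was 7.2e-13 by edgeR.

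Of the isoforms that were lower, uc007iax.2 (2018 nt) was the only form counted in each total RNA unit, at 100% of at least 3440 counts. It was at 0% in all 6 nuclear IP units, which allows up to 1.40% at 214 counts in the shallowest one, and at 0% in nuclear IgG, which allows up to 0.845%. A 966-nt isoform of the same cluster held 96.7% ± 2.2 in the nuclear IP (SD, n = 6). In cytoplasmic IP units uc007iax.2 held 0% to 14.3%.

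The isoform uc007pbr.1 (2850 nt) belongs to a more abundant cluster of 2 isoforms, at 199 TPM in total RNA. It held 99.9% to 100% in total RNA and 0% in 5 of the 6 nuclear IP units, with 0.418% in the other, from 5461 to 24191 counts of the cluster per unit. The 2798-nt isoform held the rest. Nuclear IgG stood at 1.41% and cytoplasmic IP units at 0% to 1.42%. edgeR's adjusted p was 7.2e-07 for uc007iax.2 and 6.4e-07 for uc007pbr.1.

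**Figure D4:**
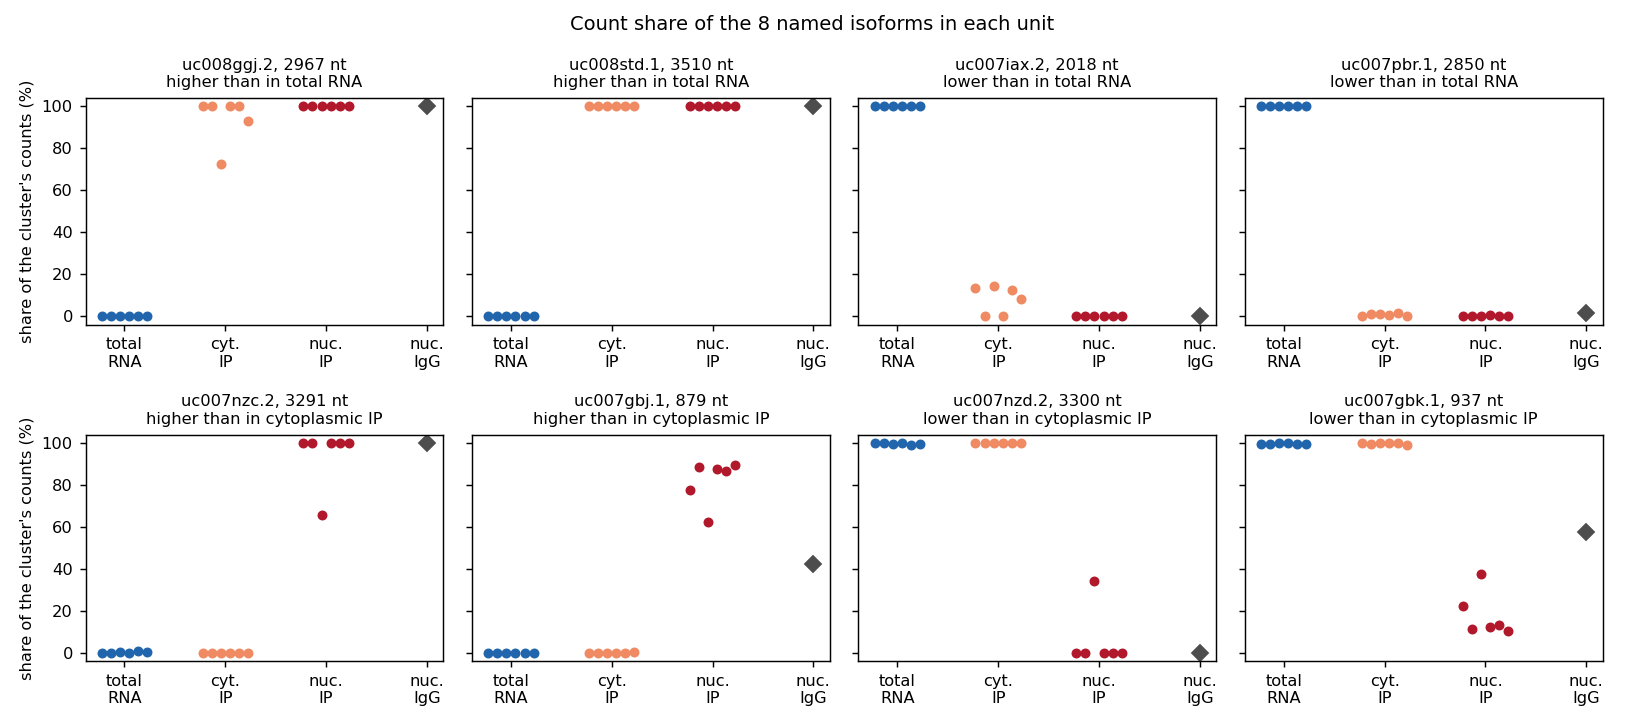
Share of the cluster's counts (%) of the 8 named isoforms in the 6 total RNA, 6 cytoplasmic IP and 6 nuclear IP units (circles) and in nuclear IgG (diamond). In the upper row, chosen against total RNA, both IPs and IgG stand together; in the lower row, chosen against the cytoplasmic IP, the cytoplasmic IP stands with total RNA.

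Fewer isoforms differed between the nuclear IP and the cytoplasmic IP, the most similar reference made with the same antibody. In the test of shares, 1298 of 17699 transcripts passed (7.33%), 391 higher in the nuclear IP (2.21%) and 907 lower (5.12%). By cluster, 1061 of 6499 had a change (16.3%, Simes' method). This count was less stable than that against total RNA: it was 604 with the total RNA units left out of the model and 3373 with limma on log2 shares. The excess of lower shares was not kept by limma, which called 1737 higher and 1636 lower. In 2031 clusters with at least 100 counts in each IP unit, 69 transcripts passed, were higher by 10 points or more and did not overlap, with a median share of 71.4% in the nuclear IP and 14.6% in the cytoplasmic IP. Total RNA, which did not enter this contrast, had a median of 0.748% for them and lay nearer to the cytoplasmic IP for 67. For the 127 that were lower, the medians were 7.49% in the nuclear IP, 41.2% in the cytoplasmic IP and 90.8% in total RNA, and total RNA lay nearer to the cytoplasmic IP for 111. Nuclear IgG lay nearer to the nuclear IP for 50 of the 69 and for 101 of the 127. Where 1 isoform gained and another lost at least 10 points against the cytoplasmic IP, the gaining isoform was shorter in 444 of 538 clusters (82.5%).

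The largest such change was in a cluster of 2 isoforms of nearly equal length, uc007nzc.2 (3291 nt) and uc007nzd.2 (3300 nt). The shorter held 100% in 5 nuclear IP units and 65.9% in the first C57BL/6J normal-diet unit. It held 0% in all 6 cytoplasmic IP units, which allows up to 0.811% in the shallowest. It held at most 0.973% in total RNA and 100% in nuclear IgG. The adjusted p between the IPs was 4.6e-05 for uc007nzc.2 by edgeR.

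The other cluster named by this rule was abundant, at 783 TPM in total RNA. Its 879-nt isoform uc007gbj.1 held 77.6% and 88.6% in the ob/ob nuclear IP units, 62.2% and 87.8% in the C57BL/6J normal-diet units and 86.7% and 89.5% in the high-fat units. It held 0% to 0.343% in cytoplasmic IP units and at most 0.0208% in total RNA, so the groups were far apart (adjusted p of 4.9e-10 between the IPs by edgeR). Nuclear IgG stood at 42.3%, below all 6 nuclear IP units. The 937-nt isoform uc007gbk.1 held most of the rest: 99.1% to 100% in cytoplasmic IP units and 10.5% to 37.8% in nuclear IP units.

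Summed over isoforms, 10094 of 13516 clusters differed between nuclear IP and total RNA (74.7%, edgeR's quasi-likelihood test, adjusted p under 0.05), 4354 higher (32.2%) and 5740 lower (42.5%). The split depended on the scaling: with library size in place of TMM it was 2855 higher and 6987 lower, and the median log2 fold of all clusters moved from -0.18 to -0.54. By transcript, 19149 of 24579 passed (77.9%), with 6630 higher (27%) and 12519 lower (50.9%). In 3921 of the 6499 clusters with at least 2 tested transcripts (60.3%), transcripts of the same cluster passed in opposite directions, and 1028 of those clusters (26.2%) did not pass as a whole, close to the 1598 of all 6499 (24.6%). Of these 1598 clusters, 1435 (89.8%) had a changed isoform share, close to the 87.3% of all 6499. Isoform changes were thus about as frequent in clusters whose summed level did not pass as in all clusters. Clusters whose leading isoform was replaced had a median log2 fold of 0.21, and those that kept it 0.11. Both sets needed at least 20 counts in every nuclear IP and total RNA unit, and the median of all tested clusters was -0.18.

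Clusters with a single isoform were lower less often than those with 10 or more, in a description with no test. Of single-isoform clusters, 36.9% were higher and 39.5% lower. With 2 isoforms it was 30.4% and 44.1%, with 5 to 9 isoforms 28.7% and 44.8%, and with 10 or more (106 tested) 23.6% and 48.1%.

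The most abundant genes were mostly lower in the nuclear IP. Of the 111 clusters at 1000 TPM or more in total RNA, 74 were lower (66.7%, against 42.5% of all clusters tested) and 24 higher, and 67 and 11 passed with a fold of at least 2. Relative to the median of all tested clusters, the class had a median log2 fold of -1.30 ± 0.23 over the 6 nuclear IP units (SD), with a range of -1.73 to -1.05. At 100 to 1000 TPM the median was -0.29 ± 0.14 (545 of 1044 lower, 357 higher), at 10 to 100 TPM 0.10 ± 0.031 (2216 of 5121 lower, 2002 higher) and at 1 to 10 TPM -0.07 ± 0.031 (2462 of 5745 lower, 1571 higher). Nuclear IgG followed the same order in the upper classes, at -1.09 and -0.46. Cytoplasmic IP units went the other way in the most abundant class, at 0.31 to 0.47, with no overlap with the nuclear IP. Of the 2 scale-free values given next, the narrower did not separate the cytoplasmic IP from total RNA. The broader was higher in all 6 cytoplasmic IP units. Under 1 TPM, 1495 of 19384 clusters passed the filter on low counts, so that class is not described further.

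**Figure D5:**
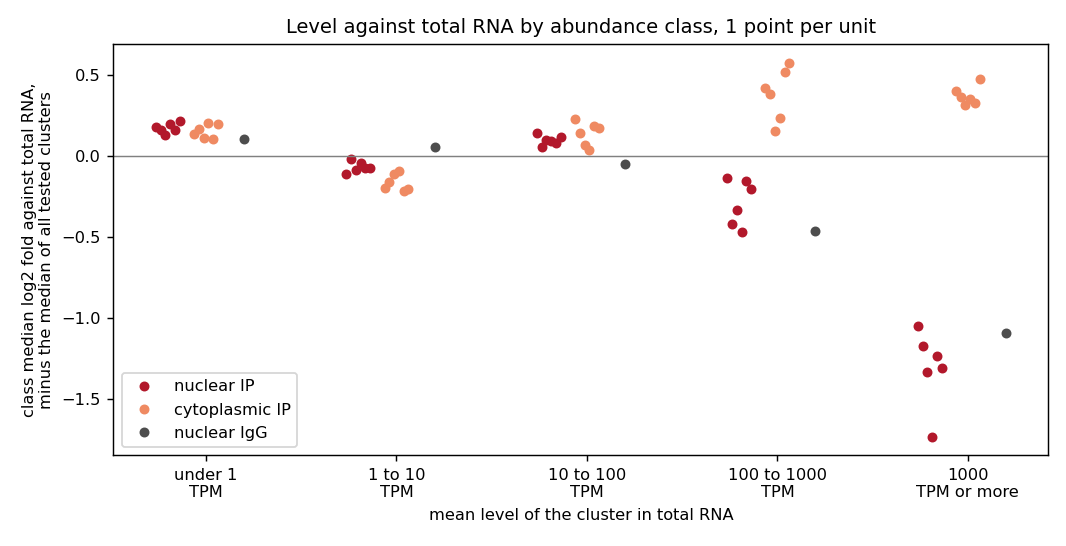
Median log2 fold against total RNA of the clusters in 5 classes of total RNA level (horizontal axis, TPM), minus the median of all tested clusters (vertical axis), 1 point per nuclear IP, cytoplasmic IP or IgG unit. In the class at 1000 TPM or more the nuclear IP units lie at -1.73 to -1.05, nuclear IgG at -1.09 and cytoplasmic IP units at 0.31 to 0.47.

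A value that needs no scaling was then taken in each unit, the median log2 CPM (counts scaled to the library's total) of the class at 1000 TPM or more minus that of the class at 10 to 100 TPM. It was 4.67 ± 0.13 in the nuclear IP and 5.84 ± 0.13 in total RNA (SD, n = 6), a difference of -1.17 (exact permutation test, two-sided, p = 0.00926). Cytoplasmic IP units stood at 5.62 to 6.06, overlapping the 5.69 to 6.03 of total RNA, and their order differed between mouse groups. Both C57BL/6J normal-diet cytoplasmic units (5.88 and 5.92) lay below both total RNA units of that group (6.03 and 5.96). Both high-fat cytoplasmic units (5.96 and 6.06) lay above theirs (5.76 and 5.84). The ob/ob units overlapped (5.62 and 5.93 against 5.78 and 5.69). Nuclear IgG stood at 4.96. Nuclear and cytoplasmic IP differed by -1.22 (p = 0.00926, exact permutation test). This pair of classes was chosen after the class medians were seen. The broader contrast of clusters at 100 TPM or more against those at 1 to 10 TPM gave 4.79 ± 0.13 and 5.01 ± 0.13, a difference of -0.22 (exact permutation p = 0.00926). It did not hold under all settings: with the classes set by CPM in place of TPM it was 0.03 (exact permutation p = 0.657), and it lost its call without total RNA replicate 1 of ob/ob mice (-0.19, exact p = 0.0556) and without total RNA replicate 2 of C57BL/6J normal-diet mice (-0.18, exact p = 0.0741). The narrower contrast was -1.43 with the classes set by CPM. On the broader contrast with classes by TPM, cytoplasmic IP units stood at 5.224 to 5.549, above the 4.875 to 5.218 of total RNA units. That difference was not tested.

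The abundant class as a whole took more of the nuclear IP's counts, which turned when 1 cluster was left out. Clusters at 1000 TPM or more held a median of 48.9% of counts in the nuclear IP and 42.6% in total RNA. A single-isoform cluster of 5818 nt, uc012ath.2, chosen after its values were seen, held 18.6% to 41.2% of all nuclear IP counts, 0.926% to 2.78% of total RNA counts and 16.5% of nuclear IgG counts. Without it, the class held 29.1% to 46.6% in the nuclear IP (median 34.5%) and 39.2% to 43.3% in total RNA (median 41.6%), and 28.2% in IgG. The 100 most counted clusters of each unit held 57.0% ± 8.2 in the nuclear IP and 44.0% ± 1.9 in total RNA (SD, n = 6, exact permutation p = 0.00926). Without that cluster they held 42.5% ± 5.3 and 43.1% ± 1.6, a difference that did not pass (exact permutation p = 0.824).

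Of the 1155 clusters at 100 TPM or more, 1000 passed (86.6%, against 74.7% of all tested), 381 higher (33.0%, against 32.2%) and 619 lower (53.6%, against 42.5%). The groups did not overlap for 256 of those that were higher and 505 of those that were lower. The largest increases were uc029sug.1 and uc009sgd.1. The single-isoform cluster uc029sug.1 (532 nt) was at 65062 and 79724 TMM-scaled CPM in the ob/ob nuclear IP units, 35053 and 48253 in the C57BL/6J normal-diet units and 98500 and 197689 in the high-fat units. In total RNA it ranged from 1337 to 3629 CPM, and nuclear IgG stood at 25240. All 6 nuclear IP units lay above all total RNA units and above IgG; the log2 fold change was 5.15 ± 0.33 (SE, adjusted p of 2.1e-09 by edgeR). The 2-isoform cluster uc009sgd.1 was at 1206 to 2916 CPM in total RNA, 20957 to 116902 CPM in the nuclear IP and 14106 CPM in IgG. Its log2 fold change was 4.55 ± 0.31 (SE, adjusted p of 5.1e-09 by edgeR). The 6 nuclear IP units stood in the same order in both clusters, and so did the 6 total RNA units. Whether the 2 clusters share reads was not tested, so they may not be separate signals.

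The largest decreases were uc009cix.1 and uc007thb.2, both single-isoform clusters. The cluster uc009cix.1 (1937 nt) had 1 to 40 counts per nuclear IP unit, or 0.310 to 5.19 CPM, against 254 to 595 CPM in total RNA. Its log2 fold change was -7.95 ± 0.25 (SE, edgeR adjusted p of 3.3e-12). The lowest units were those of mice on the high-fat diet, at 0.514 and 0.310 CPM, from few counts. These mice were also lowest in total RNA, at a mean of 281.6 CPM against 443.8 in ob/ob and 499.0 in C57BL/6J normal-diet mice. The cluster uc007thb.2 (703 nt) fell by 6.20 ± 0.37 on the same scale (SE), with an adjusted p of 9.8e-10 by edgeR. It had 83.5 to 156.7 CPM in total RNA and 0.467 to 3.67 CPM in the nuclear IP. Nuclear IgG stood at 5.36 CPM for uc009cix.1 and 2.02 CPM for uc007thb.2, and cytoplasmic IP units at 12.9 to 74.8 and 5.73 to 41.6 CPM, between nuclear IP and total RNA.

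The isoform shift was found in each of the 3 mouse groups. The median share distance from total RNA was 41.2% in ob/ob mice, 43.8% in C57BL/6J mice on a normal diet and 43.0% in those on a high-fat diet, with 44.4%, 47.1% and 45.9% of the 2178 clusters at 50% or more. Across 7439 transcripts, the changes of share in 2 mouse groups had Pearson's r of 0.966 to 0.973. This is a description across transcripts of the same clusters, which are not independent replicates, and each group has its own libraries of both kinds. Whether the shift differs between mouse groups was not tested.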

How the data were processed

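Per the labels' protocols, liver was ground in hypotonic buffer, nuclei were extracted with salt, extracts were pre-cleared on IgG beads, and libraries were made from total or IP RNA with a TruSeq RNA kit. The authors deposited RSEM 1.2.8 isoform tables, 1 per library, with expected counts (estimated counts), TPM and transcript lengths, per the file headers and the submitters' processing notes. These notes also name bcl2fastq, TopHat2 2.0.10, Bowtie2 2.1.0, SAMtools and mm10, with no role; their annotation is not stated there. RSEM divides reads that fit several isoforms by a model in which a read that fits 2 isoforms is more probable from the shorter one. It estimated an effective length below the transcript length by 48.4 to 58.8 nt in nuclear IP and 54.0 to 66.2 in total RNA. In nuclear IgG it was 56.6 nt, and in cytoplasmic IP 60.1 to 67.8 nt, with no overlap with the nuclear IP. The part of this in the isoform results, also between the 2 IPs, was not tested. The deposited TPM values set the abundance classes only, as the mean over total RNA units. Overlapping or similar transcripts and antisense pairs are uncertain.

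The total RNA libraries with 1 replicate number (25597307 to 41731910 counts each) were summed as repeat runs, which the labels do not state. The IgG libraries are labelled as hnRNPK-bound RNA but titled IgG, and the titles were followed. Counts were summed per cluster or kept per transcript and rounded. Tests used edgeR 4.0.16 (TMM, filterByExpr, quasi-likelihood; diffSpliceDGE for shares) in R 4.3.3 over 18 units in 9 groups, with Benjamini-Hochberg adjustment at 0.05; the contrast is the mean over the 3 mouse groups. Single values per unit were compared by an exact permutation test of 216 arrangements within mouse groups. Class medians used log2(CPM + 0.5). Upper limits for a share of 0 are 3 counts of the cluster and cover counting error only. DESeq2 1.42.0 and limma 3.58.1 were alternatives; the steps were tested on simulated data. In a first simulation of the share step that changed leading isoforms, many changes were missed, and the cause was not tested. The simulation kept was limited to isoforms of intermediate share and does not cover leading isoforms.

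The comparison, members, lists and tests were chosen with earlier results of these data known. Clusters are named by their most counted isoform. The rule for names took the 2 highest and 2 lowest per comparison: for clusters, passing, at 100 TPM or more and without overlap, by log2 fold; for shares, passing, in clusters with 100 counts per unit and without overlap, by the change of mean count share. Its gene lists and markers need symbols and were not used.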

Additional observations from a re-analysis of the deposited data

Results flagged for a closer look

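Leaving out the most counted cluster, the share of counts in the 100 most counted clusters went opposite ways in the mouse groups: it was lower in both nuclear IP units than in both total RNA units of ob/ob mice (41.0% and 40.6% against 44.9% and 43.6%) and of C57BL/6J mice on a normal diet (37.2% and 40.4% against 42.5% and 44.9%), and higher in mice on a high-fat diet (43.6% and 52.5% against 40.8% and 42.2%). The mean difference was -0.588 percentage points, and the difference between mouse groups was not tested.

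Among 26 sets of 6 units looked at, 2 had 1 unit far from the others. Sets of equal values could not be marked, and where 5 units are equal any other value is marked, so no chance rate is given. The isoform uc008std.1 had a share of 0.00106% in 1 total RNA unit and 0% in the other 5. The isoform uc007pbr.1 had 0.418% in 1 nuclear IP unit and 0% in the other 5.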

How the results depend on the processing

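The 12 named clusters and isoforms kept their direction and their call in all 236 values under alternatives (other scalings, filters, tools, units and left-out replicates). They were picked from these data as the largest changes that passed, so this does not extend to other clusters or isoforms. The counts against total RNA stayed within 1.5 times: 9842 to 11300 clusters, 16296 to 22557 transcripts and 11198 to 14720 isoform shares over the settings other than left-out replicates. Leaving out 1 unit at a time gave 9742 to 10130 clusters, 18468 to 19240 transcripts, 11740 to 12367 shares, 954 to 1368 shares between nuclear and cytoplasmic IP, 1746 to 2052 replaced leading isoforms, 11.04 to 14.97 percentage points for the 100 most counted clusters, -0.124 to -0.121 for the weighted log2 length, -1.27 to -1.11 for the class at 1000 TPM or more and -0.27 to -0.16 for the contrast of 100 TPM or more with 1 to 10 TPM.

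The last contrast was 0.0297 (p = 0.657, exact permutation test) with classes by CPM, and -0.21 in both fits with the class set from 1 total RNA replicate and the other compared (p = 0.148 each, exact permutation test with 3 total RNA units). Without the most counted cluster the 100 most counted held -0.59 points (p = 0.824, exact permutation test). Shares that passed between nuclear and cytoplasmic IP numbered 604 in a model of those 12 units, 711 with the replicate block and 3373 with limma; the cause was not tested. Replaced leading isoforms numbered 777 with a minimum of 100 counts, which leaves 2178 clusters, and 72 where nuclear IgG led with another isoform than the nuclear IP. Across clusters, the difference between replicates in the nuclear IP was correlated with that in total RNA. The correlation was 0.293 in ob/ob mice, 0.407 in the other mice on a normal diet and -0.121 in mice on a high-fat diet. These values differ in sign, so they do not decide whether the replicate numbers pair the units. The replicate block gave 10511 clusters, 16296 transcripts and 11376 shares. Leaving out the first library of ob/ob total RNA 1, chosen after seeing the data, gave 10104, 19070, 12116 and, between the IPs, 1273. Depth limits shares most in nuclear IgG, at 3116786 counts.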
